A study of Homo sapiens with 8 samples.

Results

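Amino acid transporters of the SLC1A, SLC3A, SLC6A, SLC7A, SLC36A, SLC38A and SLC43A families were examined in human THP-1 macrophages. Members were taken by their gene symbol in the platform annotation, as every gene whose symbol starts with 1 of these 7 family names followed only by digits. That rule uses no measured value, but the families were chosen with earlier results of these data known. This gave 59 genes, each with 1 probe set, among 21448 gene probe sets on the array, of which 17709 carry 1 symbol. SLC6A has 18 members here, SLC7A 13, SLC38A 12, SLC1A 7, SLC36A 4, SLC43A 3 and SLC3A 2.

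THP-1 is an established human cell line from an acute monocytic leukaemia, and in all 4 conditions the cells were first turned into macrophages overnight with the phorbol ester PMA at 100 ng/ml, in medium with serum and added glutamine. EPI+LPS cells received epirubicin, an anthracycline that intercalates into DNA and inhibits topoisomerase II, at 0.25 µg/ml for 24 h. After this pretreatment they received LPS, the bacterial ligand of TLR4, at 100 ng/ml for 3 h. EPI cells received the same epirubicin without LPS, LPS cells the same LPS without epirubicin, and untreated cells neither. Each condition has 2 arrays, named duplicates in the labels, and nothing says whether they came from separate cultures, so the p-values reflect no more than how far duplicate arrays differ, and that spread may be technical. The model is 1 leukaemic line differentiated with PMA. Total RNA of whole wells was measured, so fewer cells of a kind and less RNA per cell cannot be told apart.

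Amino acid transporters bring in building blocks for protein, glutathione, nitric oxide and polyamines, and they move amino acids across the lysosomal membrane, where the kinase complex mTORC1 senses them. Many SLC7A proteins are light chains that reach the plasma membrane only as disulfide-linked pairs with the heavy chain SLC3A2, also known as CD98 or 4F2hc. Some families hold members that carry something else: many, though not all, SLC6A proteins take up other neurotransmitters or osmolytes, and SLC43A3 is a purine nucleobase transporter. In macrophages, cystine and arginine uptake are classically tied to activation by LPS.

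Values are log2 expression as deposited, and a difference of 1 is a 2-fold change. Probe sets differ in their response, so levels are compared between conditions and never between genes. A gene was called at an unadjusted p of at most 0.01 with at least a 2-fold change, in a limma fit of all 21448 gene probe sets over the 8 arrays. The study used this threshold for its epirubicin comparisons and a stricter one for its core set of LPS genes. Benjamini-Hochberg adjusted p-values over all of these probe sets stand beside each value. Of 612 control probe sets named as negative, the array medians lay between 3.78 and 4.05 and the 95th percentiles between 6.66 and 7.07. Duplicates correlated at 0.985 to 0.987 over all gene probe sets and arrays of different conditions at 0.947 to 0.984.

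The cells carried the markers of their label. All 10 macrophage or monocyte markers measured reached log2 6 on at least 1 array, CD163 with the lowest values (5.73 to 6.23), and all 4 T cell markers measured stayed below 6 on all arrays. The monocyte marker CD14 varied with treatment, with means of 11.06 in EPI+LPS cells, 13.79 in EPI cells, 13.07 in LPS cells and 14.83 in untreated cells. Among markers of other cells, the B cell genes CD79A and CD79B reached 9.35 and 7.59, and the epithelial gene KRT8 7.97. The fibroblast genes COL1A2 and COL1A1 reached 8.59 and 6.28. The endothelial gene PECAM1, which monocytes also express, reached 15.29 and VWF 6.01.

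Of the 59 members, 29 stayed below log2 6 on all 8 arrays, the limit used here for near background, 24 were at or above it on all arrays and 6 crossed it. Near background were 14 of the 18 SLC6A genes (SLC6A3, SLC6A4, SLC6A5, SLC6A7, SLC6A9, SLC6A11, SLC6A13, SLC6A14, SLC6A15, SLC6A16, SLC6A17, SLC6A18, SLC6A19 and SLC6A20). They also included 6 of the 13 SLC7A genes (SLC7A3, SLC7A4, SLC7A9, SLC7A10, SLC7A13 and SLC7A14), together with SLC1A1, SLC1A6, SLC1A7, SLC3A1, SLC36A2, SLC36A3, SLC38A4, SLC38A8 and SLC38A11. None of the 3 SLC43A genes was near background, and 9 of 12 SLC38A genes were above the limit on at least 1 array.

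Upstream sequences are shown for the members whose LPS effect is described first and whose start lies at the outer end of the gene, so that the values can be read beside the DNA that precedes each gene. RefSeq promoter entries (GRCh38.p14) matched 45 of the 59 members, and the 14 without an entry are SLC1A2, SLC3A1, SLC6A2, SLC6A3, SLC6A6, SLC6A12, SLC6A15, SLC7A2, SLC7A3, SLC7A4, SLC7A11, SLC7A13, SLC38A3 and SLC43A3. The 250 bases before the start are given 5′ to 3′ on the strand of the gene, and capitals mark a match to one of the motifs described after them. SLC7A1 lies at chr13:29595689-29595938 on the minus strand, SLC1A3 at chr5:36596338-36596587 on the plus strand and SLC38A12 at chr17:74776249-74776498 on the plus strand.
SLC7A1: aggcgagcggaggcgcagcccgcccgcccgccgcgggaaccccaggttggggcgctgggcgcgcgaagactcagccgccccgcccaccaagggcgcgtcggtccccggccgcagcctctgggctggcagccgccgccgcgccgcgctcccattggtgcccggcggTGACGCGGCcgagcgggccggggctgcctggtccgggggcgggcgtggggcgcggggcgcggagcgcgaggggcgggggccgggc
SLC1A3: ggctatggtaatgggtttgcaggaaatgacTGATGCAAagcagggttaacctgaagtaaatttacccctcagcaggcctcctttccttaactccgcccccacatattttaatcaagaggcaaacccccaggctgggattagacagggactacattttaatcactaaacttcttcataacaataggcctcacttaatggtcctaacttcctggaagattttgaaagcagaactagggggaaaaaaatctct
SLC38A12: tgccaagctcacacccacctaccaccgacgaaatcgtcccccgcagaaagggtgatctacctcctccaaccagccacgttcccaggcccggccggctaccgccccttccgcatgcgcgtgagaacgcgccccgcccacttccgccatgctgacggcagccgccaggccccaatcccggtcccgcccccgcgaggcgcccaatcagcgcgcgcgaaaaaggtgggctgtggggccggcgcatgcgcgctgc

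In these windows both strands were searched for 4 motifs. TGACNNNGC, the core of the antioxidant response element, occurs in 10.9% of all 35116 promoter windows of this length and in 4 of the 45 members, among them SLC7A1, 85 to 77 bases before its start. TGATGNAA, the core of the amino acid response element bound by ATF4, occurs in 3.14% of all windows and in 1 of the 45 members, SLC1A3, 220 to 213 bases before its start. TGANTCA, the AP-1 site, occurs in 6.57% of all windows and in 7 of the 45 members, among them SLC43A2 and SLC7A8, whose windows lie inside their gene spans. The NF-kB decamer occurs in 9.96% of all windows and in 4 of the 45 members, among them SLC43A1. The SLC38A12 window held none of the 4. These matches describe letters in the windows, and binding was not measured.

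LPS raised the cystine and cationic amino acid carriers SLC7A11 and SLC7A1 more than any other member, raised SLC43A2, SLC43A3 and SLC1A3, and lowered SLC38A12, SLC7A8, SLC43A1 and SLC6A12, with and without epirubicin. With epirubicin, 13 of 59 members were called between EPI+LPS and EPI cells, 8 higher and 5 lower (22%), against 12.1% of all gene probe sets (5.46% higher and 6.59% lower). Without epirubicin, 9 were called between LPS and untreated cells, 5 higher and 4 lower (15.3%), against 11.7% of all gene probe sets (5.4% higher and 6.28% lower). All 13 and all 9 had adjusted p-values of at most 0.05 in limma (8.4e-05 to 0.0424 and 7.2e-05 to 0.0158). The median log2 fold change over the 59 members was -0.01 with epirubicin and 0.00 without it, beside -0.03 and -0.05 over all gene probe sets, and the median size of the change was 0.45 and 0.48, beside 0.39 and 0.37.

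By family, the calls with epirubicin were in 4 of 13 SLC7A, 3 of 3 SLC43A, 2 of 7 SLC1A, 2 of 18 SLC6A, 1 of 4 SLC36A, 1 of 12 SLC38A and 0 of 2 SLC3A genes. Without epirubicin they were in 3 of 13 SLC7A, 3 of 3 SLC43A, 1 of 7 SLC1A, 1 of 18 SLC6A, 1 of 12 SLC38A, 0 of 4 SLC36A and 0 of 2 SLC3A genes. Of all these calls, 1 with epirubicin was of a near background gene, SLC6A4. SLC1A2, also called with epirubicin, had no array above 6.61. It thus stayed under the 95th percentile of the negative controls on every array (6.66 to 7.07).

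SLC7A11, the xCT light chain that takes up cystine in exchange for glutamate, read 11.98 and 12.03 in EPI+LPS cells against 8.73 and 7.69 in EPI cells, and 11.81 and 11.77 in LPS cells against 7.55 and 8.20 in untreated cells. Every LPS array lay above every array without LPS, and the arrays without LPS spread more widely than those with it. The log2 fold change was 3.79 ± 0.37 (SE) with epirubicin (adjusted p = 3.8e-04, limma) and 3.92 ± 0.37 without it (adjusted p = 3.2e-04), a 13.9-fold and a 15.1-fold rise.

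SLC7A1, the CAT1 carrier of arginine, lysine and ornithine, read 11.85 and 11.96 in EPI+LPS cells against 8.06 and 8.62 in EPI cells, and 12.17 and 11.96 in LPS cells against 8.79 and 8.68 in untreated cells. Every LPS array was again above every array without LPS. The rise was 3.57 ± 0.26 with epirubicin (adjusted p = 8.4e-05, limma) and 3.33 ± 0.26 without it (adjusted p = 1.2e-04). The other cationic carrier, SLC7A2 (CAT2, whose splice forms differ in affinity), read 7.66 and 7.98 in EPI+LPS cells against 4.84 and 5.73 in EPI cells, and 5.56 and 7.09 in LPS cells against 5.36 and 4.40 in untreated cells. The LPS duplicates differed from each other by more than 1 log2 unit, and EPI+LPS cells were above all other arrays. SLC7A2 was called with epirubicin (2.54 ± 0.55, adjusted p = 0.02, limma) and not without it (1.44 ± 0.55, adjusted p = 0.148). The first call was lost without EPI duplicate 1 (2.09) or EPI+LPS duplicate 2 (2.38), and without LPS duplicate 1 the second became a call (2.21).

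The facilitative carriers of large neutral amino acids in the SLC43A family moved in opposite directions. SLC43A2 (LAT4) read 15.55 and 15.34 in EPI+LPS cells against 13.42 and 13.35 in EPI cells, and 15.11 and 15.24 in LPS cells against 13.16 and 12.73 in untreated cells. It rose by 2.06 ± 0.25 with epirubicin (adjusted p = 0.00116, limma) and by 2.23 ± 0.25 without it (adjusted p = 7.6e-04), with no overlap. SLC43A1 (LAT3) read 6.50 and 6.21 in EPI+LPS cells against 7.62 and 8.33 in EPI cells, and 7.28 and 6.47 in LPS cells against 9.21 and 9.23 in untreated cells. By mean it was lowest in EPI+LPS cells, close to the near background limit, and highest in untreated cells. It fell by 1.62 ± 0.35 on the log2 scale with epirubicin (adjusted p = 0.0203, limma) and by 2.34 ± 0.35 without it (adjusted p = 0.00368). The first of these calls was lost without EPI duplicate 2 (-1.26) or EPI+LPS duplicate 2 (-1.48).

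SLC43A3, the nucleobase transporter, read 16.14 and 15.95 in EPI+LPS cells against 14.62 and 14.82 in EPI cells, and 15.91 and 15.97 in LPS cells against 14.47 and 14.60 in untreated cells. Arrays with and without LPS did not overlap, and the rise was 1.32 ± 0.23 with epirubicin (adjusted p = 0.00712, limma) and 1.40 ± 0.23 without it (adjusted p = 0.0057). SLC43A3 and SLC43A1 are neighbours on chromosome 11 (GRCh38.p14), 57 kb apart with 1 coding gene between them, and under LPS the first rose while the second fell.

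Among the SLC1A carriers, SLC1A3 (EAAT1), which takes up glutamate and aspartate, read 9.12 and 9.49 in EPI+LPS cells against 7.46 and 7.72 in EPI cells, and 9.32 and 9.23 in LPS cells against 8.12 and 8.01 in untreated cells. All LPS arrays were above all arrays without LPS, and the rise was 1.71 ± 0.25 with epirubicin (adjusted p = 0.00285, limma) and 1.21 ± 0.25 without it (adjusted p = 0.0158). SLC1A2 (EAAT2), the main glutamate carrier of astrocytes, stayed near the limit, with 6.61 and 5.85 in EPI+LPS cells against 5.18 and 4.16 in EPI cells, and 6.24 and 5.86 in LPS cells against 5.23 and 4.78 in untreated cells. It was called with epirubicin (1.56 ± 0.41, adjusted p = 0.0424, limma) and not without it (1.05 ± 0.41, adjusted p = 0.158). The call was lost without EPI duplicate 2 (1.05) or EPI+LPS duplicate 1 (1.18), and in a fit of the EPI+LPS and EPI arrays alone (adjusted p = 0.0886, limma). With the duplicate number as a block the effect without epirubicin was a call too (1.05, adjusted p = 0.0513, limma).

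The neutral amino acid exchangers of the same family were not called. SLC1A5 (ASCT2), the glutamine carrier, read 11.52 and 11.63 in EPI+LPS cells against 11.96 and 12.54 in EPI cells, and 11.55 and 11.32 in LPS cells against 12.07 and 11.77 in untreated cells. The LPS arrays were below those without LPS, by 0.68 ± 0.28 with epirubicin (log2 fold change -0.68, adjusted p = 0.171, limma). SLC1A4 (ASCT1), a carrier of alanine, serine and cysteine, read 8.56 and 8.45 in EPI+LPS cells against 9.08 and 9.44 in EPI cells, and 8.64 and 8.13 in LPS cells against 8.40 and 8.38 in untreated cells. Only the EPI arrays were above 9, and the LPS effect with epirubicin was -0.76 ± 0.27 (adjusted p = 0.116, limma).

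The deepest fall belonged to SLC38A12, listed in RefSeq also as TMEM104, which read 8.71 and 8.81 in EPI+LPS cells against 12.24 and 11.81 in EPI cells, and 8.44 and 8.63 in LPS cells against 12.29 and 11.96 in untreated cells. Arrays with and without LPS were separated by far more than the duplicates of any condition. The fall was 3.27 ± 0.26 on the log2 scale with epirubicin (log2 fold change -3.27, adjusted p = 1.3e-04, limma) and 3.59 ± 0.26 without it (-3.59, adjusted p = 7.2e-05). SLC6A12 (BGT1), a carrier of betaine and GABA, read 6.37 and 6.59 in EPI+LPS cells against 8.24 and 8.01 in EPI cells, and 7.72 and 7.26 in LPS cells against 8.90 and 8.91 in untreated cells. SLC6A12 was lowest with both agents and highest with neither. Its EPI+LPS values lay under the 95th percentile of the negative controls on the same arrays (7.04 and 7.03). LPS lowered it by 1.64 ± 0.26 with epirubicin (log2 fold change -1.64, adjusted p = 0.00442, limma) and by 1.42 ± 0.26 without it (-1.42, adjusted p = 0.00956).

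**Figure D1:**
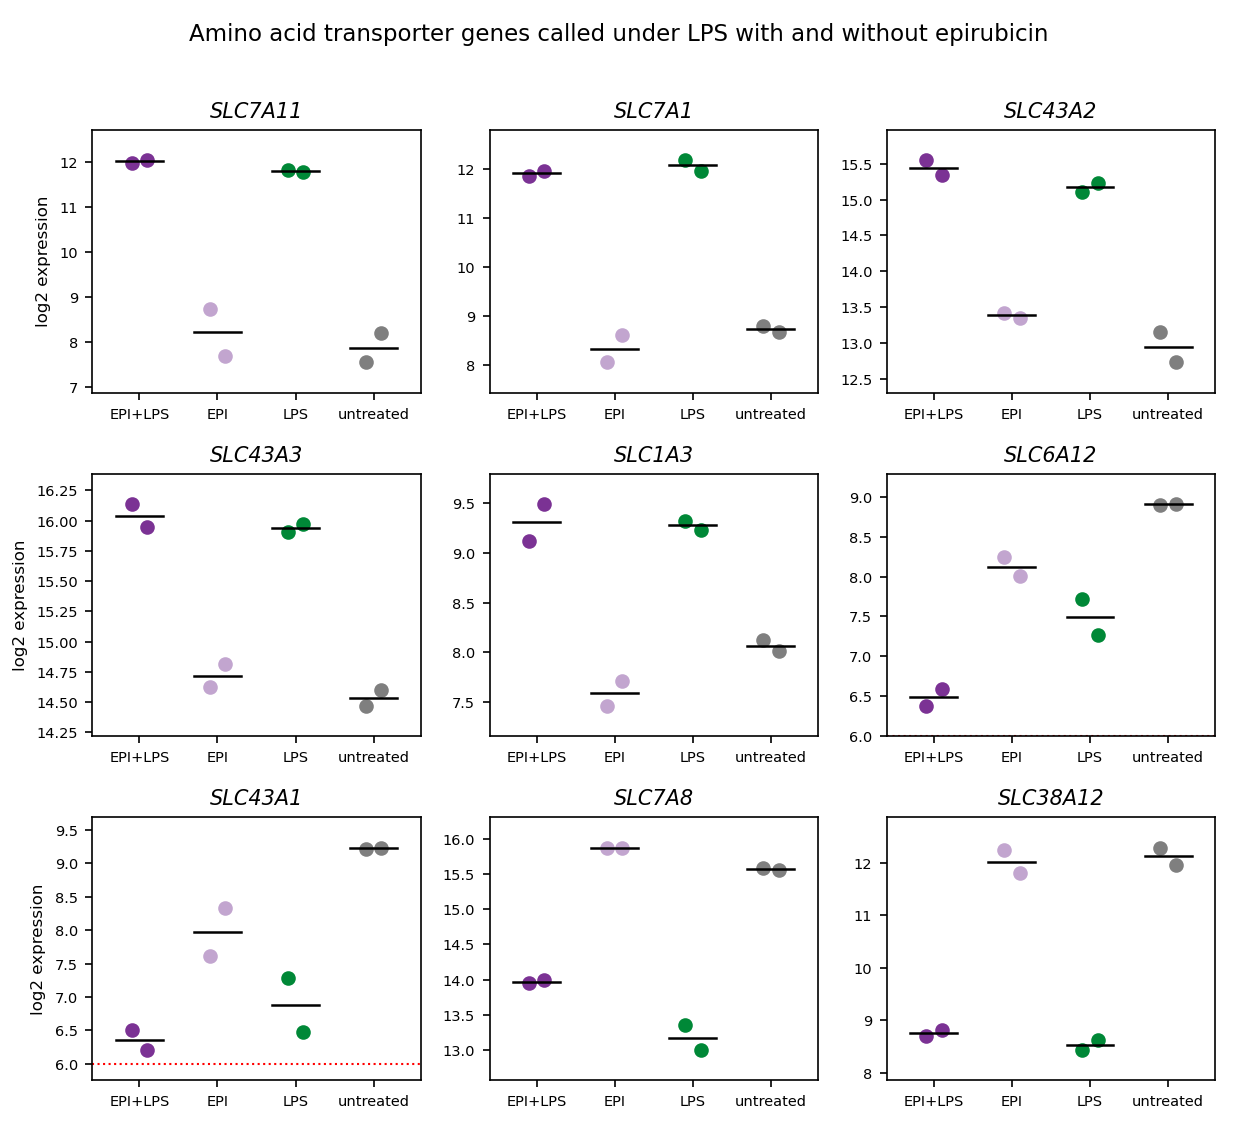
Log2 expression of the 9 transporter genes called under LPS both with and without epirubicin, 1 panel per gene with its own axis range (not starting at 0). Points are the 2 arrays of each condition, bars their mean and the red dotted line the near background limit of log2 6. In SLC7A11, SLC7A1, SLC43A2, SLC43A3 and SLC1A3 the arrays with LPS lie above those without it, and in SLC6A12, SLC43A1, SLC7A8 and SLC38A12 below.

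The light chains that pair with SLC3A2 did not move together under LPS. SLC3A2 itself read 13.40 and 13.56 in EPI+LPS cells against 14.09 and 14.04 in EPI cells, and 13.24 and 13.29 in LPS cells against 13.78 and 13.86 in untreated cells. The groups did not overlap, but the log2 fold changes of -0.59 ± 0.22 with epirubicin and -0.56 ± 0.22 without it had adjusted p-values of 0.14 and 0.164 in limma and were under 2-fold. Another fit let the prior variance depend on the mean and also estimated it robustly. It is named below by the mean dependence alone, and the 2 settings were not tried apart. In that fit the adjusted p-values of SLC3A2 were 0.0024 and 0.00351 (limma). SLC7A8 (LAT2), a light chain for large and small neutral amino acids, read 13.95 and 13.99 in EPI+LPS cells against 15.87 and 15.87 in EPI cells, and 13.35 and 13.01 in LPS cells against 15.59 and 15.56 in untreated cells. LPS lowered it without overlap, by 1.90 ± 0.23 with epirubicin (log2 fold change -1.90, adjusted p = 0.00124, limma) and by 2.39 ± 0.23 without it (-2.39, adjusted p = 3.5e-04), in the conditions where the light chain SLC7A11 rose.

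SLC7A5 (LAT1), the light chain for leucine and other large neutral amino acids, read 9.69 and 9.30 in EPI+LPS cells, 9.89 and 9.76 in EPI cells, 10.30 and 10.46 in LPS cells and 10.45 and 10.37 in untreated cells. All 4 epirubicin arrays were below the 4 arrays without it, while LPS and untreated arrays overlapped. The y+LAT light chains exchange cationic for neutral amino acids, and SLC7A7 (y+LAT1) read 11.44 and 11.48 in EPI+LPS cells against 12.11 and 12.35 in EPI cells, and 12.03 and 12.46 in LPS cells against 12.54 and 11.98 in untreated cells. Its EPI+LPS arrays were below all others, and the LPS effect with epirubicin was -0.78 ± 0.28 (adjusted p = 0.129, limma). SLC7A6 (y+LAT2) read 7.59 and 8.23 in EPI+LPS cells, 8.38 and 8.57 in EPI cells, 8.32 and 8.53 in LPS cells and 8.89 and 9.31 in untreated cells, and was not called. SLC7A10 (Asc-1), a serine and glycine exchanger of brain and fat, stayed near background, with 4.00 and 4.72 in EPI+LPS cells, 4.71 and 4.26 in EPI cells, 4.89 and 5.37 in LPS cells and 4.86 and 4.85 in untreated cells.

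**Figure D2:**
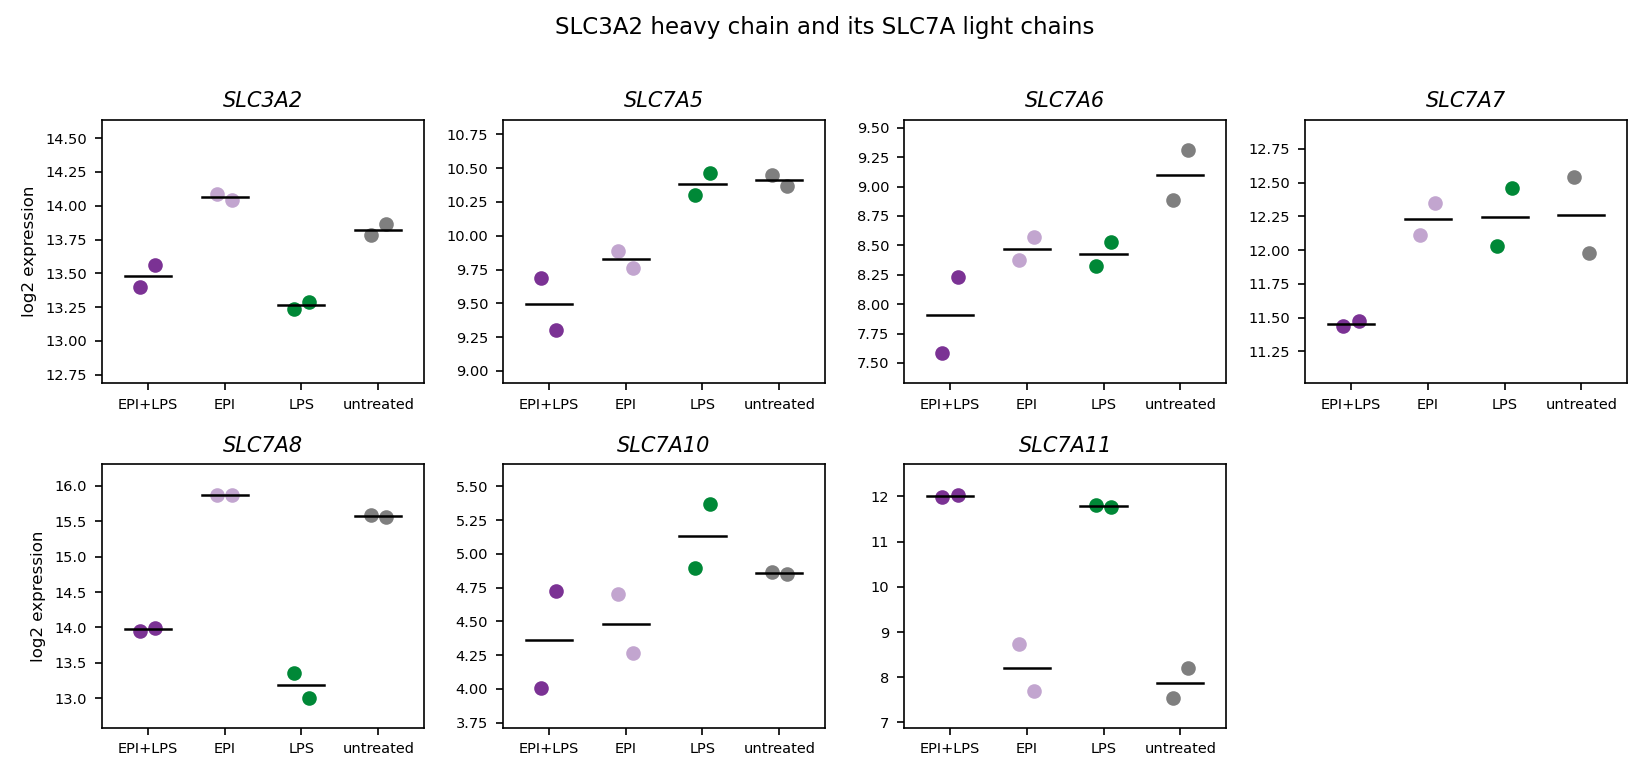
Log2 expression of the heavy chain gene SLC3A2 and of 6 light chain genes that pair with it, 1 panel per gene with its own axis range (not starting at 0). Points are the 2 arrays of each condition and bars their mean. SLC7A11 is about 12 with LPS and near 8 without it, SLC7A8 is lower with LPS, and SLC7A5 is lower in both conditions with epirubicin.

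Of the carriers of the lysosomal membrane, SLC36A1 was called under LPS and SLC38A9 was not. SLC36A1 (PAT1), which exports small neutral amino acids with protons, read 9.07 and 9.21 in EPI+LPS cells against 10.28 and 10.24 in EPI cells, and 9.54 and 9.87 in LPS cells against 10.60 and 10.47 in untreated cells. It was called with epirubicin (-1.12 ± 0.24, adjusted p = 0.0175, limma) and, at less than 2-fold, not without it (-0.83 ± 0.24, adjusted p = 0.059), and the groups did not overlap in either. SLC38A9, the arginine sensor that signals to mTORC1, read 9.57 and 9.52 in EPI+LPS cells against 10.14 and 9.77 in EPI cells, and 9.70 and 9.22 in LPS cells against 10.40 and 10.23 in untreated cells. Its LPS effect without epirubicin was -0.85 ± 0.27 (adjusted p = 0.0823, limma) and became a call without LPS duplicate 1 (-1.09).

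The sodium-coupled glutamine and alanine carriers SLC38A1 (SNAT1) and SLC38A2 (SNAT2) are direct neighbours on chromosome 12 (GRCh38.p14), 89.1 kb apart with 0 coding genes between them. SLC38A2 read 15.15 and 14.89 in EPI+LPS cells against 15.90 and 15.99 in EPI cells, and 14.98 and 14.69 in LPS cells against 15.40 and 15.51 in untreated cells. It was below its counterpart on every LPS array, but under 2-fold, with -0.92 ± 0.24 with epirubicin (adjusted p = 0.0419, limma) and -0.62 ± 0.24 without it (adjusted p = 0.156), and the effect with epirubicin passed 2-fold without EPI+LPS duplicate 1 (-1.05). SLC38A1 read 15.01 and 14.42 in EPI+LPS cells against 14.87 and 15.08 in EPI cells, and 14.71 and 14.58 in LPS cells against 13.81 and 13.56 in untreated cells. Its untreated arrays were the lowest, and the LPS effect without epirubicin was 0.96 ± 0.27 (unadjusted p = 0.00755, adjusted p = 0.0602, limma), just under 2-fold, passing it when arrays were shifted to a common median (1.02).

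Of the remaining members above the limit on at least 1 array, SLC38A6 fell short of the 2-fold threshold, with 10.96 and 11.40 in EPI+LPS cells, 11.62 and 11.76 in EPI cells, 10.63 and 10.81 in LPS cells and 11.79 and 11.59 in untreated cells. LPS and untreated arrays of SLC38A6 did not overlap (adjusted p = 0.0443, limma). The taurine carrier SLC6A6 stayed between 12.44 and 13.10, SLC38A10 between 10.07 and 11.11 and SLC36A4 between 6.65 and 7.95, and none of them was called in any comparison. SLC6A2, SLC38A3, SLC38A5 and SLC38A7 lay between 3.92 and 6.57.

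With a prior variance that depends on the mean, 18 members reached an adjusted p of 0.05 or less (limma) for LPS with epirubicin, where 17.2% of all probe sets did, and 15 for LPS without it, where 16.5% did. Of the members not called at 2-fold, these included SLC3A2 and SLC38A2 in both comparisons, SLC1A5 (adjusted p = 0.0238, limma), SLC7A7 (0.00893) and SLC6A6 with epirubicin, and SLC36A1 (0.0193), SLC38A1 (9.0e-05), SLC38A9 (0.0246) and SLC38A6 without it.

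**Figure D3:**
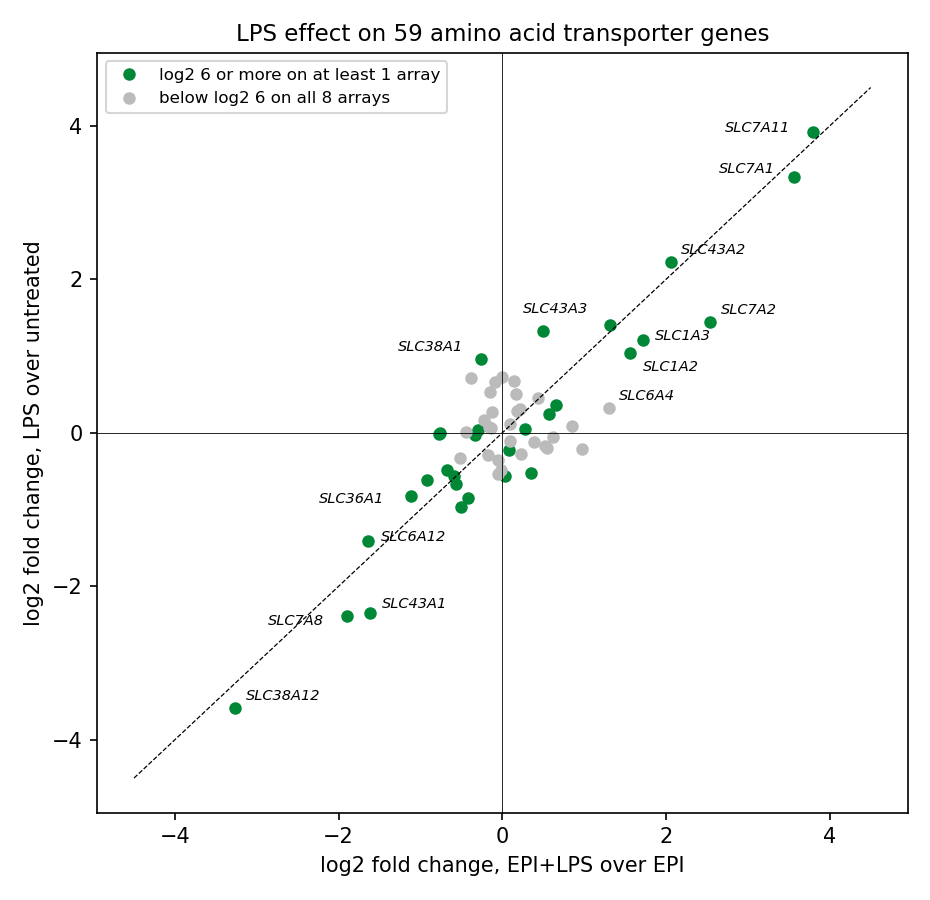
LPS effect on the 59 transporter genes with epirubicin (EPI+LPS over EPI, horizontal axis) and without it (LPS over untreated, vertical axis), both as log2 fold changes. Each point is a gene, the dashed line marks equal effects, and gray points stayed below log2 6 on all 8 arrays. SLC7A11 and SLC7A1 lie at the upper right, SLC38A12 at the lower left, and SLC38A1 has 0.96 on the vertical axis.

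The difference of the LPS effects, with minus without epirubicin, asks whether epirubicin changed the response to LPS. By an adjusted p of at most 0.05 it was called for 0 of the 59 members in limma, against 1 of all 21448 probe sets (0.00466%). At an unadjusted p under 0.05 there were 3 members, SLC38A1, SLC6A4 and SLC6A3, of which the last 2 were near background. For the 13 members called under LPS in either comparison, the differences ran between -0.29 and 1.10 log2 units with adjusted p-values of 0.617 to 0.982. The 4 members called only with epirubicin in this fit, SLC7A2, SLC1A2, SLC6A4 and SLC36A1, are therefore not shown to respond differently, and the interval of a single difference is wide (for SLC7A2, a 95% interval of -0.68 to 2.87). SLC6A4, the serotonin transporter, stayed below 6 throughout, with 5.32 and 5.17 in EPI+LPS cells, 4.00 and 3.89 in EPI cells, 4.32 and 4.12 in LPS cells and 4.02 and 3.77 in untreated cells, and its LPS effect with epirubicin was 1.3 ± 0.23 (adjusted p = 0.00857, limma).

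Few members were called for epirubicin, as were few of all gene probe sets. With one prior variance, none of the member calls had an adjusted p of at most 0.05 over all probe sets (limma). Of all 21448 probe sets, 22 reached that level with LPS and 3 without it. The calls of SLC6A8 and SLC38A1 did reach it with a prior variance that depends on the mean. The epirubicin comparisons use the same 8 arrays as the LPS comparisons, so that an array far from its duplicate enters both. Between EPI+LPS and LPS cells, 3 of the 59 members were called, SLC6A8 and SLC6A4 higher and SLC6A12 lower (5.08%), against 2.66% of all gene probe sets (1.25% higher and 1.4% lower). Between EPI and untreated cells, 2 members were called, SLC38A1 higher and SLC43A1 lower (3.39%), against 2.26% of all gene probe sets (1.06% higher and 1.2% lower). The adjusted p-values were 0.179 to 0.209 and 0.208 to 0.31 in limma. Members numbered 9 and 6 at an unadjusted p under 0.05, and the median log2 fold change over the 59 members was 0.07 and -0.03, beside 0.01 and 0.00 over all gene probe sets. Leaving out 1 array changed which members were called. With LPS, SLC6A8, SLC6A4 and SLC6A12 all lost their calls without EPI+LPS duplicate 1, where SLC7A5 gained one (-1.08). SLC6A8 and SLC6A12 lost theirs without LPS duplicate 1, and SLC6A12 without EPI+LPS duplicate 2. Without LPS duplicate 2, SLC6A8 and SLC6A4 lost theirs and SLC7A2 gained one (2.26). In the comparison without LPS, SLC38A1 and SLC43A1 both lost their calls without untreated duplicate 2. SLC6A8 gained one there without untreated duplicate 1 (1.14).

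SLC38A1 had the smallest p of the 59 members for epirubicin without LPS (unadjusted p = 0.00136, limma). Its EPI arrays, at 14.87 and 15.08, lay above the untreated arrays at 13.81 and 13.56, while EPI+LPS arrays at 15.01 and 14.42 lay on both sides of the LPS arrays at 14.71 and 14.58. The log2 fold change was 1.29 ± 0.27 without LPS (95% interval 0.67 to 1.92, adjusted p = 0.208, limma) and 0.07 ± 0.27 with LPS (95% interval -0.56 to 0.70, adjusted p = 0.955). Their difference, which equals the difference of the LPS effects, was -1.22 ± 0.39 (unadjusted p = 0.0129, adjusted p = 0.609, limma), and with a prior variance that depends on the mean it had an adjusted p of 0.014. The call without LPS was lost without untreated duplicate 2 (1.17) or EPI duplicate 2 (1.19), and the effect with LPS turned to -0.22 without EPI+LPS duplicate 1.

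SLC43A1, which LPS lowered, was also lower with epirubicin alone, at 7.62 and 8.33 in EPI cells against 9.21 and 9.23 in untreated cells. In the presence of LPS the EPI+LPS arrays at 6.50 and 6.21 overlapped the LPS arrays at 7.28 and 6.47. The log2 fold change was -1.25 ± 0.35 without LPS (adjusted p = 0.31, limma) and -0.52 ± 0.35 with LPS (adjusted p = 0.641). The call without LPS was lost when either untreated array (-1.26 without duplicate 1 and -1.23 without duplicate 2), EPI duplicate 1 (-0.89) or either EPI+LPS array (-1.25 each) was left out, and with the duplicate number as a block (-1.25, adjusted p = 0.374, limma).

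Within the SLC6A family, the creatine transporter SLC6A8 read 11.40 and 11.20 in EPI+LPS cells against 10.11 and 10.23 in LPS cells, and 10.71 and 10.57 in EPI cells against 10.10 and 9.50 in untreated cells. Both epirubicin groups were above their counterparts without overlap, by 1.13 ± 0.27 with LPS (adjusted p = 0.192, limma) and by 0.84 ± 0.27 without it (adjusted p = 0.359). The call with LPS was lost without LPS duplicate 1 (1.07), LPS duplicate 2 (1.19) or EPI+LPS duplicate 1 (1.03), and the effect without LPS became a call without untreated duplicate 1 (1.14). SLC6A12 moved the other way. It read 6.37 and 6.59 in EPI+LPS cells, in the range of the negative controls, against 7.72 and 7.26 in LPS cells. In EPI cells it read 8.24 and 8.01, against 8.90 and 8.91 in untreated cells. Its epirubicin effect was -1.01 ± 0.26 with LPS (adjusted p = 0.209, limma) and -0.78 ± 0.26 without it (adjusted p = 0.362), and the call with LPS was lost without LPS duplicate 1 (-0.78), EPI+LPS duplicate 1 (-0.90) or EPI+LPS duplicate 2 (-1.12) and in a fit of the 2 groups alone (adjusted p = 0.389, limma).

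SLC6A4 was higher in EPI+LPS than in LPS cells by 1.03 ± 0.23 (adjusted p = 0.179, limma) at near background levels. Without LPS its difference was 0.05 ± 0.23 (adjusted p = 0.971, limma). The call was lost without LPS duplicate 2 (0.93) or EPI+LPS duplicate 1 (0.95) and with a prior variance that depends on the mean (adjusted p = 0.209, limma).

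Other members differed with epirubicin at an unadjusted p under 0.05 without a call. SLC7A5 was lower in EPI+LPS than in LPS cells by 0.89 ± 0.24 (log2 fold change -0.89, adjusted p = 0.247, limma) and lower in EPI than in untreated cells by 0.58 ± 0.24 (-0.58, adjusted p = 0.462), and the first became a call without EPI+LPS duplicate 1 (-1.08). SLC7A8 was higher in EPI+LPS than in LPS cells, by 0.79 ± 0.23 (adjusted p = 0.275, limma), and SLC7A7 lower, by 0.79 ± 0.28 (log2 fold change -0.79, adjusted p = 0.364). SLC1A4 was higher in EPI than in untreated cells by 0.87 ± 0.27 (adjusted p = 0.337, limma). SLC7A2 was higher in EPI+LPS than in LPS cells by 1.5 ± 0.55 (adjusted p = 0.372, limma), and it became a call without LPS duplicate 2 (2.26) and with a prior variance that depends on the mean (adjusted p = 0.169). SLC7A10 at -0.77 ± 0.32 and SLC36A1 at -0.57 ± 0.24 were lower in EPI+LPS than in LPS cells (adjusted p = 0.443 and 0.439, limma).

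With the mean-dependent prior variance, adjusted p-values of at most 0.05 were reached in limma by SLC6A8, SLC7A7 and SLC7A8 between EPI+LPS and LPS cells, where 1.92% of all probe sets did so. Between EPI and untreated cells they were reached by SLC38A1 and SLC38A2, where 1.41% of all probe sets did so. SLC38A2 read 15.90 and 15.99 in EPI cells against 15.40 and 15.51 in untreated cells, without overlap and under 2-fold.

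**Figure D4:**
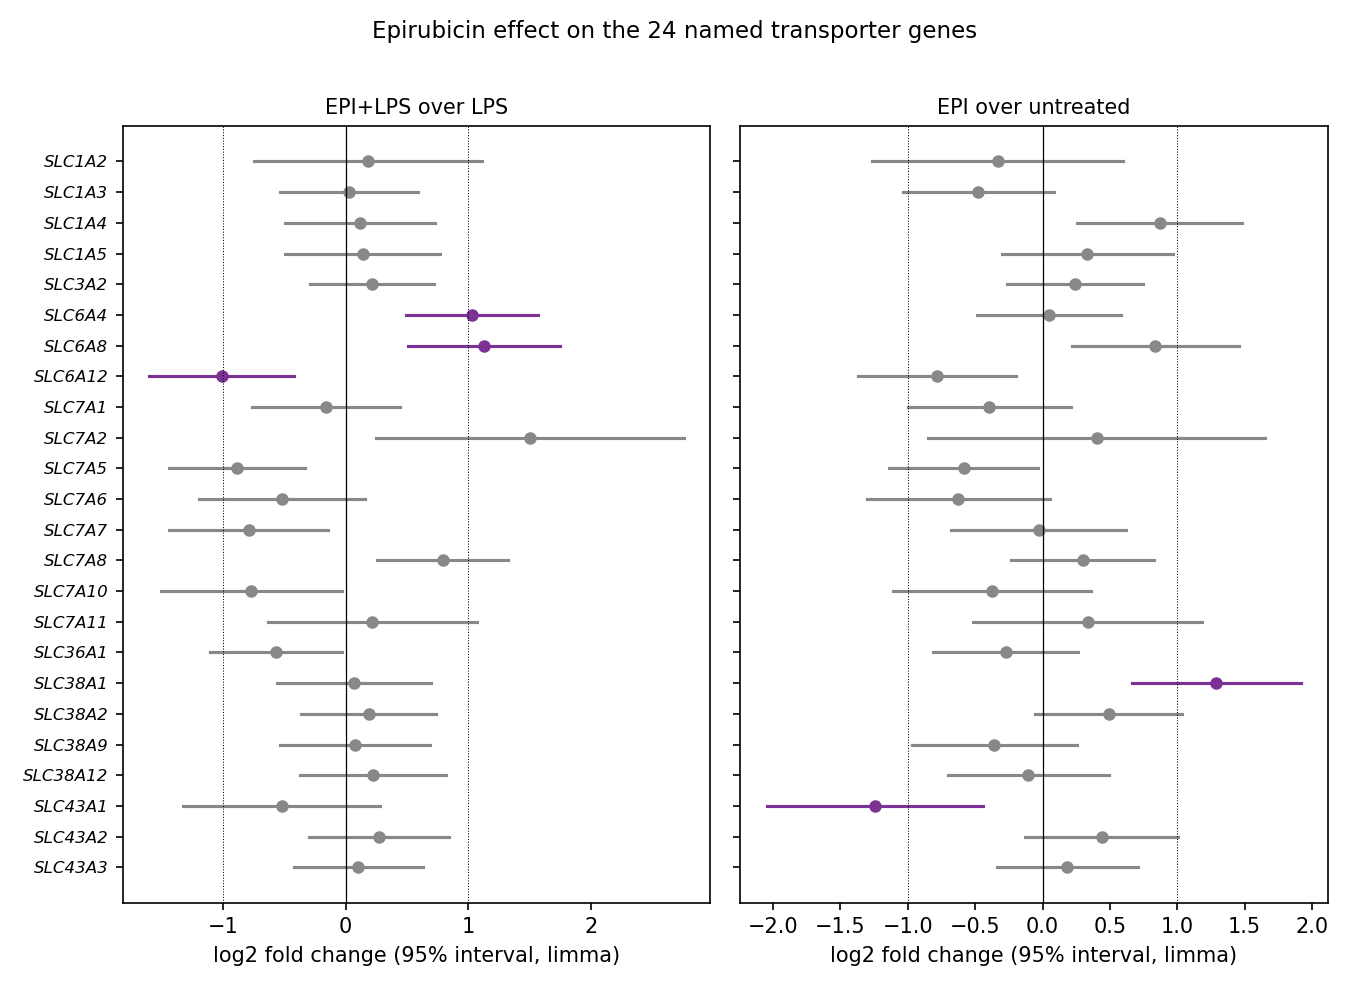
Epirubicin effect on the 24 transporter genes described by array, as log2 fold change with its 95% interval from limma, with LPS (left) and without it (right). Dotted lines mark a 2-fold change, and purple marks the called genes SLC6A4, SLC6A8 and SLC6A12 on the left and SLC38A1 and SLC43A1 on the right. SLC7A2 has the widest intervals.

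**Figure D5:**
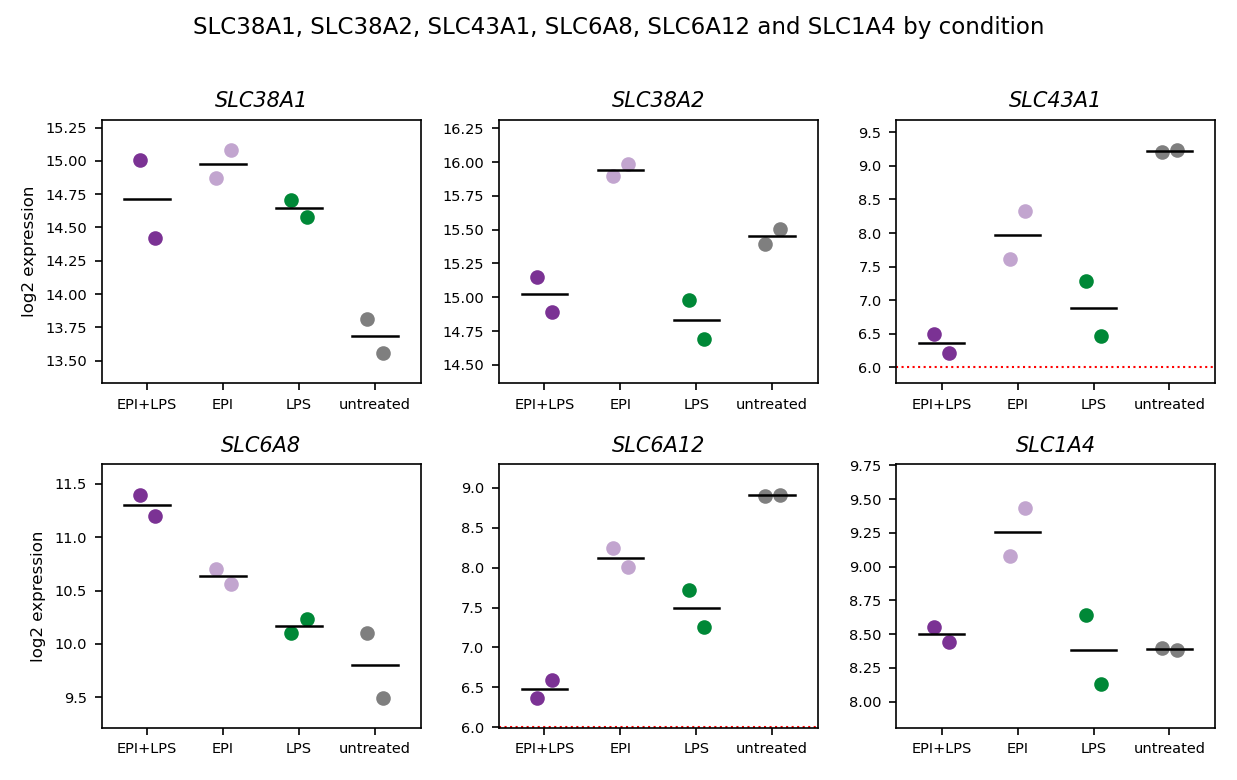
Log2 expression of SLC38A1, SLC38A2, SLC43A1, SLC6A8, SLC6A12 and SLC1A4, 1 panel per gene with its own axis range (not starting at 0). Points are the 2 arrays of each condition, bars their mean and the red dotted line the near background limit of log2 6. SLC38A1 is lowest in untreated cells, and the means of SLC6A12 and SLC43A1 are highest there and lowest in EPI+LPS cells.

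Genes that work with these transporters were read from 5 lists, beside the shares of all probe sets given above. Of 18 other amino acid transporters measured, 4 were called under LPS with epirubicin (1 higher, 3 lower) and 4 without it (2 higher, 2 lower), with median log2 fold changes of -0.24 and -0.35, beside -0.03 and -0.05 over all probe sets. Lysosomal exporters were among those that LPS lowered. SLC17A5, which exports sialic acid, fell by 2.60 ± 0.29 on the log2 scale with epirubicin (log2 fold change -2.60, adjusted p = 8.3e-04, limma). Without epirubicin its fall was 2.05 ± 0.29 (-2.05, adjusted p = 0.00302, limma). SLC66A1 (PQLC2), which exports cationic amino acids, fell by 1.54 ± 0.26 with epirubicin (-1.54, adjusted p = 0.00665, limma) and by 1.90 ± 0.26 without it (-1.90, adjusted p = 0.00249). SLC15A3, a peptide and histidine carrier of endolysosomes, rose by 1.73 ± 0.24 with epirubicin (adjusted p = 0.0026, limma) and by 1.46 ± 0.24 without it (adjusted p = 0.00635). With epirubicin as the variable, 1 of the 18 was called with LPS, SLC25A12, the mitochondrial aspartate and glutamate carrier (-1.47 ± 0.32, adjusted p = 0.159, limma), and 0 without LPS, where 2 fell under 0.05 before adjustment.

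Of 19 genes listed for the amino acid response of ATF4, 8 were called under LPS with epirubicin and 8 without it (5 higher and 3 lower each time). VEGFA rose by 3.75 ± 0.23 with epirubicin and 4.86 ± 0.23 without it, and ATF3 by 4.59 ± 0.33 and 5.90 ± 0.33 (all adjusted p at most 7.0e-05, limma). Other stress pathways are also known to induce both genes. ATF4 itself was not called under LPS (0.08 ± 0.24 with epirubicin and 0.15 ± 0.24 without it), nor were ASNS and TRIB3. DDIT3 was called lower under LPS without epirubicin (-1.23 ± 0.35, adjusted p = 0.0573, limma) and was not called with it. EIF4EBP1, a translation repressor, was lower by 2.18 ± 0.28 with epirubicin (log2 fold change -2.18, adjusted p = 0.00148, limma). The epirubicin calls were SESN2 (1.68 ± 0.38) and DDIT3 (1.38 ± 0.35) with LPS, at adjusted p-values of 0.174 and 0.206 in limma, and VEGFA (1.23 ± 0.23) and ATF3 (1.60 ± 0.33) without LPS, at 0.159 and 0.208. The median log2 fold change of the list under LPS was 0.08 with epirubicin and 0.18 without it. None of the 16 cytosolic aminoacyl-tRNA synthetases measured was called with epirubicin as the variable, with or without LPS, while at an unadjusted p under 0.05 there were 2 and 1. Under LPS, 1 was called with epirubicin (AARS1, -1.32 ± 0.24, adjusted p = 0.00894, limma) and 2 without it, with medians of -0.03 and -0.06.

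Of 32 enzymes that use the carried amino acids, 8 were called under LPS with epirubicin (4 higher, 4 lower) and 8 without it (6 higher, 2 lower), with medians of -0.22 and -0.05. GCLM, the modifier subunit of the enzyme that joins cysteine to glutamate in glutathione synthesis, rose by 4.17 ± 0.28 with epirubicin (adjusted p = 4.7e-05, limma) and 3.43 ± 0.28 without it (adjusted p = 1.3e-04), under the same treatment that raised the cystine carrier SLC7A11. LPS lowered the catalytic subunit GCLC by 1.35 ± 0.31 with epirubicin (log2 fold change -1.35, adjusted p = 0.0243, limma). Without epirubicin GCLC was not called, with means of 11.16 in LPS cells and 11.94 in untreated cells. KYNU, of tryptophan breakdown, rose by 4.70 ± 0.34 and 4.55 ± 0.34 (adjusted p = 7.9e-05 and 8.9e-05, limma), and AZIN1, which frees ornithine decarboxylase from its inhibitor, by 1.16 ± 0.23 and 1.72 ± 0.23 (adjusted p = 0.0145 and 0.00228, limma). With epirubicin as the variable, TDO2 (-1.64 ± 0.30) and BCAT1 (-1.18 ± 0.31) were called with LPS and MTHFD2 (1.03 ± 0.23) without it, at adjusted p-values of 0.111, 0.22 and 0.209 in limma.

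Of 34 genes of amino acid sensing at mTORC1, 6 were called under LPS with epirubicin (2 higher, 4 lower) and 3 without it (all lower), with medians of -0.32 and -0.42. SESN1, a member of the leucine-sensing sestrins, was lower by 4.27 ± 0.34 with epirubicin (log2 fold change -4.27, adjusted p = 1.2e-04, limma) and 3.72 ± 0.34 without it (-3.72, adjusted p = 2.6e-04). FNIP2, a partner of folliculin, was lower by 1.59 ± 0.25 and 1.37 ± 0.25 (log2 fold changes -1.59 and -1.37, adjusted p = 0.00439 and 0.00932, limma). For LPS with epirubicin, RRAGD, a Rag GTPase that tethers mTORC1 to the lysosome, was called lower (-1.48 ± 0.23, adjusted p = 0.00405, limma). TFEB, the transcription factor of lysosomal genes, was called higher there (2.30 ± 0.46, adjusted p = 0.0143, limma). For LPS without epirubicin neither was called (-0.93 ± 0.23 and 0.88 ± 0.46, adjusted p = 0.0342 and 0.296, limma). With epirubicin as the variable, 0 of the 34 were called with or without LPS, with 2 each at an unadjusted p under 0.05, and in none of the 5 lists was the difference of the LPS effects called in limma, with 1 to 4 genes per list at an unadjusted p under 0.05.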

How the data were processed

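Gene expression in 8 samples of PMA-differentiated THP-1 cells, 2 per condition, was measured on Affymetrix Clariom S HT arrays. The authors deposited log2 expression values, normalized together by SST-RMA according to the methods and by RMA according to the labels, with no version named in the paper or the labels. No further normalization was applied. The 2903 control rows among 24351 were left out, except that negative controls described the background, and the remaining 21448 probe sets were tested. Genes were named from the platform annotation. Of the probe sets, 3739 carry several symbols or none and count only in totals. Arrays give no counting depth, so their number limits precision.

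A limma model (version 3.58.1, R 4.3.3) of 4 conditions gave the epirubicin effects with and without LPS, the LPS effects with and without epirubicin, and how much the LPS effects differed. It had 4 residual and 4.25 prior degrees of freedom, and was tested on simulated data. Effects were called at an unadjusted p of at most 0.01 with at least a 2-fold change, and the difference at an adjusted p of at most 0.05. Values are given ± SE. Members called in any comparison were named, together with SLC3A2, 6 light chains and further members (SLC1A3, SLC1A4, SLC1A5, SLC7A1, SLC38A1, SLC38A2, SLC38A9, SLC36A1, SLC43A2 and SLC43A3), and of each list up to 4 called genes per comparison. GCLC, SLC38A6, ATF4, ASNS, TRIB3 and the LPS effect on DDIT3 were given beyond this rule after their values were seen. Members and lists were chosen with earlier results of these data known. Alternatives changed the prior variance (mean-dependent and robust together), the filter, the normalization, the arrays in the fit, the threshold and the duplicate block. Figures were drawn with matplotlib 3.10.9.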

Additional observations from a re-analysis of the deposited data

Results flagged for a closer look

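SLC38A1 is given here because the test of the difference between its LPS effects with and without epirubicin, estimated at -1.22 log2 units, passed with one of the prior variances tried and not with the other. This criterion was set after values had been seen, and an earlier one, opposite directions without overlap, had picked SLC6A3, SLC38A4 and SLC38A11, all near background, whose differences had adjusted p-values of 0.637, 0.838 and 0.753 in limma. Without epirubicin, LPS arrays (14.71 and 14.58) were above untreated arrays (13.81 and 13.56), and with epirubicin, EPI+LPS arrays (15.01 and 14.42) overlapped EPI arrays (14.87 and 15.08). The adjusted p over all gene probe sets in limma was 0.609 with one prior variance. It was 0.014 with a robust prior variance that depends on the mean, where 0.21% of all probe sets passed. The 2 EPI+LPS arrays differed from each other by more than any other pair of duplicates of this gene. Without EPI+LPS duplicate 1 the difference was -1.51 (adjusted p = 0.595, limma) and without EPI+LPS duplicate 2 it was -0.93 (adjusted p = 0.684).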

How the results depend on the processing

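LPS calls among the 59 members were stable across the alternatives run, with counts of 11 to 13 with epirubicin and 9 to 11 without it, and the 9 genes called in both kept their calls under every alternative run except SLC43A1 with epirubicin, whose values are given beside it. Epirubicin calls were less stable. At an adjusted p of at most 0.05 with at least a 2-fold change, 0 members were called with LPS and 0 without it with one prior variance, while with the mean-dependent prior variance SLC6A8 (1.13, adjusted p = 0.0121, limma) passed both limits with LPS and SLC38A1 (1.29, adjusted p = 1.0e-04) without it. Leaving out single arrays changed which members were called in both epirubicin comparisons. Without EPI+LPS duplicate 1, SLC6A8, SLC6A4 and SLC6A12 all lost their calls with LPS. The difference of the LPS effects was called for 1 member, SLC38A1, with the mean-dependent prior variance. The duplicate numbers did not pair the arrays (correlation of deviations -0.009 to 0.023), and with the duplicate number as a replicate block 1 member in place of 2 was called for epirubicin without LPS, 3 for epirubicin with LPS, 11 for LPS without epirubicin, 13 for LPS with epirubicin and 0 for the difference. The directions of 4 small, uncalled values turned when arrays were left out: the epirubicin effect with LPS on SLC38A1 ranged over -0.22 to 0.36 and that without LPS on SLC6A4 over -0.08 to 0.18 (-0.08 and -0.004 in the turned fits), and the difference of the LPS effects ranged over -0.46 to 0.006 for SLC6A12 and -0.008 to 0.59 for SLC6A8. Of all single-gene values and alternatives, 815 kept direction and side of the threshold, 30 lost the call, 10 gained one and 5 turned. The causes were not tested. Each gene has 1 probe set, so averaging probe sets gave no other value, and the difference of LPS effects could not be fitted on fewer groups. With 2 arrays per condition, calls rest on a spread borrowed from all probe sets. Values up to 7.07 lie in the range of the negative controls. That limits what can be said of near background members and of others with such values. Among these are SLC1A2 and, in EPI+LPS cells, SLC6A12 and SLC43A1.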
